A study of Mus musculus with 18 samples.

Results

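Nuclear and cytoplasmic IKKα were compared in 8 back skin libraries, 3 from N-IKKa mice and 5 from C-IKKa mice, of 18 libraries in all. The libraries were chosen by the measured levels of hair shaft keratins, which are therefore given without a test. The rule asked for a mean log2(normalized count + 1) below 8 over Krt25, Krt27, Krt28, Krt71, Krt73 and Krt35, keratins of the growing hair and its inner root sheath. It listed N-IKKa 7, 10 and 12 and C-IKKa 13, 15, 16, 17 and 18. Of 55357 genes listed, 17452 had a normalized count of 10 or more in 3 or more of these libraries and were tested. Cdh9, Spib and Ubd were named as markers of the contrast with earlier results of these data known, so their values describe it and are no independent evidence for it.

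The study sequenced bulk RNA from the back skin of 18 mice of the FVB strain aged 6 months, 6 in each of 3 groups. WT mice carried no transgene, N-IKKa mice carried exogenous IKKα directed to the nucleus of keratinocytes, and C-IKKa mice carried it in the cytoplasm of the same cells. Each library came from its own mouse. Which promoter drives the transgenes, and how many founder lines were used, is not given in the sources used here.

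IKKα is the product of Chuk. Its kinase complex frees NF-kB transcription factors from their IkB inhibitors, and IKKα also drives the processing of Nfkb2 in the non-canonical branch downstream of receptors such as RANK. In skin it has a further role in the nucleus, where it is needed for keratinocytes to differentiate. NF-kB switches on inhibitors of itself (Nfkbia, Nfkbie, Tnfaip3), adhesion molecules, chemokines and antigen presentation genes.

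The hair shaft keratins were read before any comparison. Their mean log2 level was 5.33, 3.13 and 3.30 in N-IKKa 7, 10 and 12. In C-IKKa 13, 15, 16, 17 and 18 it was 4.50, 4.64, 6.65, 3.47 and 9.03. C-IKKa 18 therefore lay above the limit of 8 although it was listed, and 7 of the 8 libraries lay below it. The highest library inside the limit was C-IKKa 16, and after C-IKKa 18 the next above it was C-IKKa 14 at 12.4. Krt71, a keratin of the inner root sheath, held 2152 normalized counts in C-IKKa 18 and 11.4 to 467 in the other 7 libraries. The counts of called genes are given with and without C-IKKa 18, and named genes whose call was lost without it are listed. The labels name no stage of the hair cycle, so the libraries are described by their keratins alone.

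**Figure D1:**
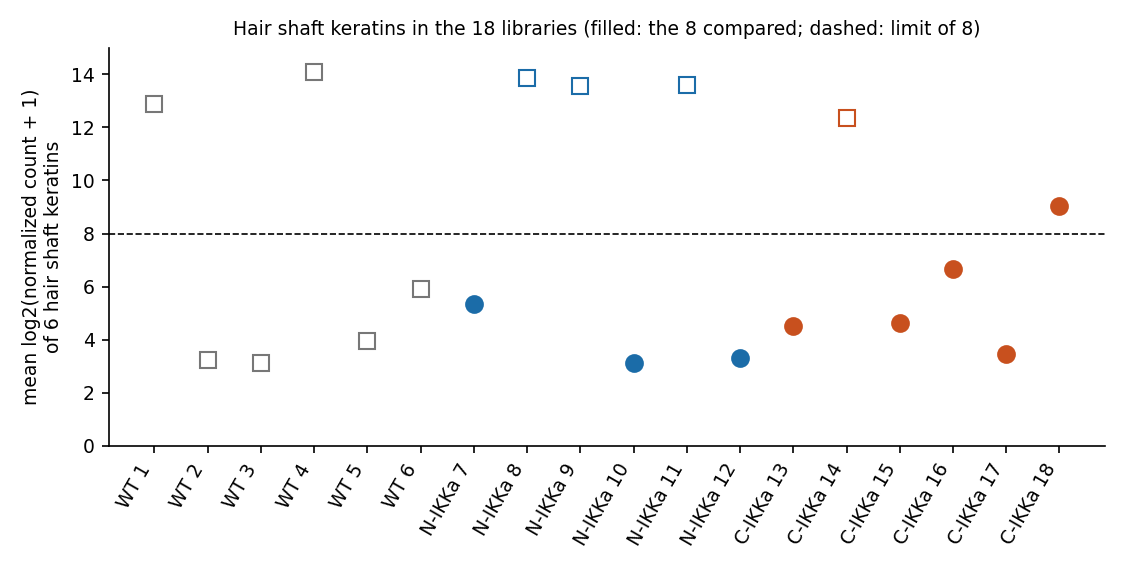
Mean log2(normalized count + 1) of 6 hair shaft keratins in each of the 18 libraries, with filled circles for the 8 compared libraries, open squares for the others and a dashed line at 8. C-IKKa 18 stands above the line at 9.03, and the other 7 compared libraries lie between 3.13 and 6.65.

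The 8 libraries held 12.6 to 14.7 M counted reads. Each read stood for 0.880 to 1.03 normalized counts, so a listed 0 leaves room for 3 reads, or 2.64 to 3.09 normalized counts. That limit covers counting error only, because the libraries carried no molecular identifiers that the labels name. Ddx3y, a Y-linked gene, stood above 1500 normalized counts in 6 of the 8 libraries and below 1 in N-IKKa 10 and C-IKKa 18, which were read as female. Xist, a marker of female cells, was listed at 0 in all 8 libraries, so sex was read from Ddx3y alone. All 7 keratinocyte identity markers were tested and none was called, with a summed level of 178175 to 189399 in N-IKKa and 158520 to 221533 in C-IKKa. Of 925 list genes, 52 were listed at 0 in all 8 libraries. They include B2m, Myd88 and Prnp, which most cells express, so a listed 0 is not read here as absence.

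Chuk averaged 951 ± 128 normalized counts in N-IKKa (SD, n = 3) and 890 ± 29.2 in C-IKKa (SD, n = 5). The difference of C-IKKa minus N-IKKa was −0.09 on the log2 scale (exact two-sided permutation p = 0.321, adjusted 0.643 over 2 genes), where the smallest p this design allows is 0.0357. The other gene was Cxcl10, listed at 0 in all 8 libraries, so its test could not show a difference. Whether reads of the introduced IKKα are counted under Chuk is not given in the sources used here, so Chuk does not check the labels.

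Limma called 56 of 17452 genes higher in C-IKKa (0.321%) and 5 lower (0.0287%) at an adjusted p below 0.05, which is 61 in either direction (0.35%). Counts of called list members below stand beside these shares. The lists were chosen with earlier results of these data known, so such counts are no independent evidence about a class of genes. At an unadjusted p below 0.05 there were 823 higher (4.72%) and 498 lower (2.85%), and edgeR on the recovered reads called 34 higher (0.195%) and 4 lower (0.0229%), all among the 61. The differences are of mean log2(normalized count + 1), C-IKKa minus N-IKKa, and a fold printed here is the same difference on a linear scale, which understates the change of genes with low counts. Of the 56, 51 were at least 2-fold higher, and of the 5, 3 were at least 2-fold lower. The 2 groups did not overlap in any of the 61. Among all genes tested, 506 had every C-IKKa library above every N-IKKa library (2.9%), and 427 had the reverse (2.45%). The filter let 158 genes through with no N-IKKa library at 10, and 14 of the 56 were among them, so these 14 could be tested only because they were higher in C-IKKa. They were 2010110G14Rik, Adcy8, Cdkn2a, Cyp2j13, Frem3, Gabrg3, Gm38101, Gm47662, Gm48709, Gm6999, Lpo, Qrfp, Tafa2 and Ubd. Without C-IKKa 18 limma called 41 genes higher (0.237%) and 5 lower (0.0289%), with 39 and 3 of the same genes. Without C-IKKa 15 it called 199 higher (1.15%) and 14 lower (0.0808%), among them all 56 and all 5. Leaving out N-IKKa 7 left 26 and 3, N-IKKa 12 left 18 and 2, C-IKKa 13 left 17 and 3, and C-IKKa 16 or 17 left 26 and 3 each. Of the 61, 15 higher and 2 lower genes were called in all 8 fits that left out a library. Of the called genes named here, 2010110G14Rik, Alox12e, Cyp2j13, Fam171b, Gm16685, Igfals, Kif26a, Lrrc4c, Ltbp2, Myl9, Qrfp, Slc1a4, Sorcs3 and Tmem132e lost their call without C-IKKa 18 (limma adjusted p of 0.0511 for Myl9 to 0.0841 for Tmem132e). With edgeR the call was lost for A530088E08Rik, Adcy8, Alox12e, Bcl2l15, Cxcl9, Etv3l, Fam171b, Gm16685, Kcnq3, Kif26a, Pglyrp2, Pld5, Sorcs3, Spib, Syn2, Syt1, Tmem132e and Wif1 (adjusted p of 0.0503 for Fam171b to 0.162 for Syt1).

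Cdh9 and Sphkap led the genes that were higher with nuclear IKKα. Cdh9 (ENSMUSG00000025370.8), a classical type II cadherin that joins neighbouring cells, held 168, 172.5 and 147 normalized counts in N-IKKa 7, 10 and 12. In C-IKKa 13, 15, 16, 17 and 18 it held 10.3, 14.7, 17.0, 12.0 and 20.9. All 3 N-IKKa libraries lay far above all 5 C-IKKa libraries, with means of 162 ± 13.8 (SD, n = 3) and 15.0 ± 4.19 (SD, n = 5). The difference was −3.39 (SE 0.27, limma adjusted p = 0.000544), or 10.5-fold. It was called in every alternative tried, and without C-IKKa 18 it was −3.51. The 4 WT libraries with low hair shaft keratins held 8.34 to 20.2, a range that overlaps that of C-IKKa and lies below N-IKKa.

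Among 18 tested classical cadherins and catenins, Cdh9 was the 1 called gene, and the list median was −0.09 against −0.0061 over all tested genes. Cdh1, the main epithelial cadherin, gave 0.13 (limma adjusted p = 0.819). Cdh2, the neural cadherin, was not called either (−0.75, limma adjusted p = 0.577), although its 3 N-IKKa libraries (44.9 to 52.3) lay above its C-IKKa libraries (17.0 to 44.3). Cdh3, the placental cadherin of hair follicle and basal keratinocytes, gave −0.10 (limma adjusted p = 0.898).

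Sphkap, an anchoring protein for protein kinase A that also binds sphingosine kinase, held 265, 332 and 265 normalized counts in N-IKKa 7, 10 and 12. The C-IKKa libraries held 83.4, 57.8, 92.2, 80.4 and 112. They lay below all N-IKKa libraries (−1.76, SE 0.20, limma adjusted p = 0.00354), and the 4 WT libraries stood at 65.5 to 118. The other 3 lower genes were smaller in size. D830036C21Rik, a numbered noncoding gene, gave −1.08 (limma adjusted p = 0.00568), Fam171b, a membrane protein, −0.51 (limma adjusted p = 0.0397), and Myl9, a myosin light chain of smooth muscle, −0.49 (limma adjusted p = 0.0445). The calls of Fam171b and Myl9 were lost without C-IKKa 18 (limma adjusted p = 0.0819 and 0.0511), and each kept its call in 1 of 8 fits that left out a library.

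The genes higher with cytoplasmic IKKα included Spib, Ubd and Pglyrp2, while the largest differences were those of Gm47662 (5.69), Tafa2 (5.41) and Gm6999 (5.36). Spib (ENSMUSG00000008193.14), a member of the Ets family found in B cells, in plasmacytoid dendritic cells and in M cells stimulated through RANK, held 12.0, 27.3 and 32.8 normalized counts in N-IKKa 7, 10 and 12. In C-IKKa 13, 15, 16, 17 and 18 it held 310, 96.4, 474, 393 and 181. C-IKKa 15 was the lowest of the 5 and still above the highest N-IKKa library. The difference was 3.45 (SE 0.48, limma adjusted p = 0.0116), or 10.9-fold, and without C-IKKa 18 it was 3.57 (limma adjusted p = 0.0202). It was not called by edgeR (adjusted p = 0.111) or without N-IKKa 7 or C-IKKa 13 (highest limma adjusted p = 0.0750). Robust moderation lost the call as well. WT libraries held 4.81 to 10.1, all below the N-IKKa libraries.

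Ubd (ENSMUSG00000035186.7), the ubiquitin-like modifier FAT10 that marks proteins for the proteasome and is induced by interferon gamma and TNF, held 3.69, 8.80 and 3.08 normalized counts in N-IKKa 7, 10 and 12. The C-IKKa libraries held 184, 38.6, 154, 168 and 97.9, all above N-IKKa, with C-IKKa 15 again the lowest. The difference was 4.31 (SE 0.50, limma adjusted p = 0.00354), or 19.9-fold, and it was called in every alternative tried. Ubd passed the filter through its C-IKKa libraries alone, so it could be tested only because it was higher there. Pglyrp2 (ENSMUSG00000079563.11), an amidase that cuts bacterial peptidoglycan, held 29.5, 31.7 and 17.4 in N-IKKa against 668, 148, 763, 758 and 394 in C-IKKa. The groups stood apart (4.15, SE 0.47, limma adjusted p = 0.00354), or 17.8-fold, with the same library lowest. The edgeR test did not call Pglyrp2 (adjusted p = 0.0977).

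Spib, Ubd and Pglyrp2 were the 3 called members of 16 tested Spib and RANK-driven epithelial genes. Among all tested genes 0.321% were called higher, and the list median was 0.22. Of the other 13, Aif1, a calcium-binding protein of macrophages, had all C-IKKa libraries above all N-IKKa libraries (45.7 to 65.9 against 29.7 to 39.6 normalized counts) and was not called (0.70, limma adjusted p = 0.387). Tnfrsf11a, which encodes RANK, gave −0.19 (limma adjusted p = 0.769), and its ligand Tnfsf11 held 0 to 15.7 in N-IKKa and 5.51 to 25.7 in C-IKKa. The M cell gene Gp2 was listed at 0 in all 8 libraries. Spi1, the Ets factor of myeloid cells, gave 0.01 (limma adjusted p = 0.994).

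B cell markers were read beside Spib. Of 15 B and plasma cell markers, 8 were tested and none was called (median 0.50), with Ighg1, an antibody heavy chain, at 1.82 (limma adjusted p = 0.732) and the coactivator Pou2af1 at 0.99 (limma adjusted p = 0.870). Ms4a1 and Igkc were listed at 0, and Pax5 and Cd79b held 0 to 3.52 in N-IKKa and 0 to 14.8 in C-IKKa. Summed over the list, the level was 5202 to 5870 in N-IKKa and 4914 to 7362 in C-IKKa, ranges that overlap. In bulk skin, fewer cells of a type and less RNA per cell cannot be told apart. The part of other cell types in the levels of Spib was not tested.

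The promoters of Spib, Ubd and Nfkbie held matches to the NF-kB consensus and are shown for that reason, with Cdh9 as a gene that changed the other way. Each sequence is the 250 bases before the RefSeq transcription start on the gene's own strand (build GRCm38.p6), with matches on either strand in capitals. The windows are chr7:44532072-44532321 (minus strand) for Spib, chr17:37193642-37193891 (plus strand) for Ubd, chr17:45555450-45555699 (plus strand) for Nfkbie and chr15:16728665-16728914 (plus strand) for Cdh9.
Spib: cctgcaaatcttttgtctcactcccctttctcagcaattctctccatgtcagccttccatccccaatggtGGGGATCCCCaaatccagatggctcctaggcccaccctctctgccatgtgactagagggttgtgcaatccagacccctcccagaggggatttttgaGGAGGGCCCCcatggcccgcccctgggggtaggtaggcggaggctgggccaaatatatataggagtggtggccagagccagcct
Ubd: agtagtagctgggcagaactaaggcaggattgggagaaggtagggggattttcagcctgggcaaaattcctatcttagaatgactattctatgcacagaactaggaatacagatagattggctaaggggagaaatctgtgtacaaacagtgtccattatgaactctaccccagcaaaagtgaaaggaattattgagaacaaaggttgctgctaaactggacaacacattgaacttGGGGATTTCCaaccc
Nfkbie: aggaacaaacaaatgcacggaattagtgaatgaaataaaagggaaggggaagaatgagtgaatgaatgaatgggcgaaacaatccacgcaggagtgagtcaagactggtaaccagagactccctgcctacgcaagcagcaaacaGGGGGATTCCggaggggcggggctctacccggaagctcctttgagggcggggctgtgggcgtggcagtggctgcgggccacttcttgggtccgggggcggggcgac
Cdh9: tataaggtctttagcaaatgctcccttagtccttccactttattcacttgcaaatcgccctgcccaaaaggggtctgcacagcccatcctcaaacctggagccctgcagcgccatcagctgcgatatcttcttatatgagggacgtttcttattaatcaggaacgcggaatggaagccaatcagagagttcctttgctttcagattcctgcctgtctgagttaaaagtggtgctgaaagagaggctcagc

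The matches began 180 and 84 bases before the start in Spib, 15 in Ubd and 106 in Nfkbie, and the Cdh9 window held none. The windows of the called-higher genes Pglyrp2 and Cxcl9, not shown, held none either. Of 3 called-lower genes with a window, 1 held a match. RefSeq windows were found for 42 of the 56 called-higher genes, and 7 of them held a match (16.7%): Chil1, Nfkbie, Qrfp, Spib, Tmem132e, Ubd and Wnt10b. The share was 8.23% over 27025 genes with a window and 10.7% over the tested genes among them. Other motifs were searched on both strands. The AP-1 site (TGACTCA or TGAGTCA) was in 3 of 42 windows against 5.16% of all genes. The gamma-activated site (TTCNNNGAA) was in 3 against 8.13%, and the interferon-stimulated response element (GAAA, any 2 bases, GAAA) was in 0 against 3.46%. The Spi-class Ets site, GAGG followed by AAGT, was in 2 against 2.79%. Matches of different motifs may share bases. A match describes letters in a window and does not show that a factor binds there.

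**Figure D2:**
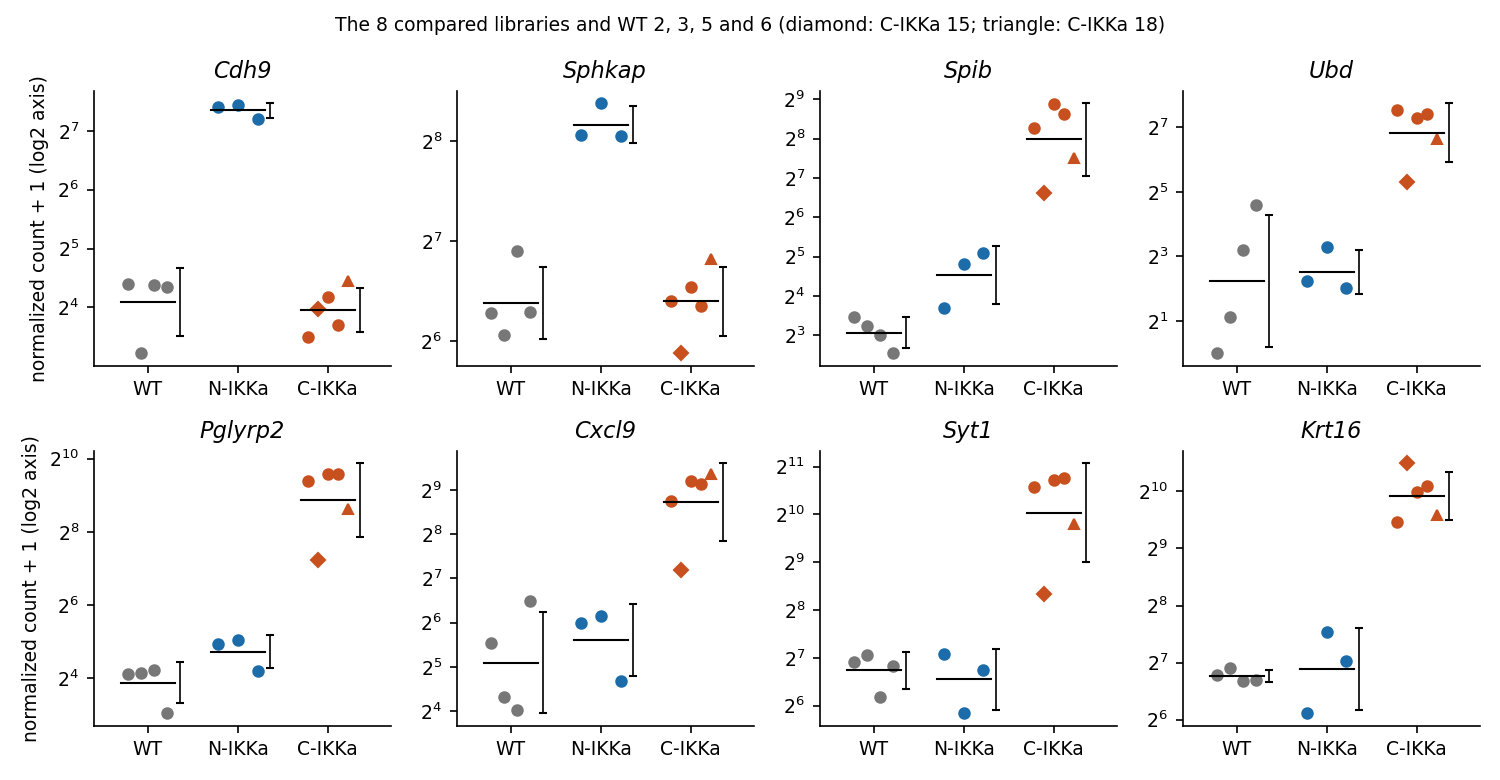
Normalized count + 1 on a log2 axis for 8 called genes in 4 low-keratin libraries of WT and the compared libraries of N-IKKa (3) and C-IKKa (5), with bars at the mean of the log2 values and whiskers of 1 SD. Cdh9 and Sphkap are high in N-IKKa and near WT in C-IKKa, and the other 6 are high in C-IKKa, with C-IKKa 15 (diamond) lowest in Spib, Ubd, Pglyrp2, Cxcl9 and Syt1 and highest in Krt16.

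The NF-kB pathway was described from its inputs to its targets. The 14 tested kinases of the IKK complex and upstream of it gave no call, with a median of 0.04. Ikbkb and Ikbkg, the other subunits of the complex, gave 0.0020 (limma adjusted p = 0.999) and 0.01 (limma adjusted p = 0.992). Ikbke, an IKK-related kinase, held 591 to 655 normalized counts in N-IKKa and 667 to 945 in C-IKKa without overlap, and was not called (0.38, limma adjusted p = 0.451). Of 10 TRAF adaptors and cIAPs none was called. Traf2, a relay of TNF receptors, gave 0.46 (limma adjusted p = 0.110) and Traf3, which restrains the non-canonical branch, 0.54 (limma adjusted p = 0.104), with no overlap in either. TNF ligands and receptors had 21 tested members, 0 calls and a median of 0.27. Tnfsf10, the death ligand TRAIL, gave 0.99 (limma adjusted p = 0.221) and Edar, the ectodysplasin receptor, 0.95 (limma adjusted p = 0.334), each with C-IKKa 15 inside the N-IKKa range.

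All 5 NF-kB subunits had positive differences and none was called (median 0.30). Relb, the partner of p52 in the non-canonical branch, held 559, 566 and 497 normalized counts in N-IKKa 7, 10 and 12. In C-IKKa 13, 15, 16, 17 and 18 it held 1284, 689, 1340, 1420 and 871, all above N-IKKa. The difference was 0.998 (SE 0.21, limma adjusted p = 0.110). Nfkb2 gave 0.59 (limma adjusted p = 0.442) and Rela 0.30 (limma adjusted p = 0.396).

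Nfkbie, which encodes IkB epsilon, was the 1 called gene of 12 tested IkB proteins and feedback inhibitors. It held 262, 242 and 216 normalized counts in N-IKKa 7, 10 and 12 and 560, 359, 617, 602 and 479 in C-IKKa 13, 15, 16, 17 and 18. The groups did not overlap, and the difference was 1.10 (SE 0.17, limma adjusted p = 0.0193), or 2.14-fold. It was called without C-IKKa 18 (limma adjusted p = 0.0410) and by edgeR (adjusted p = 0.0215), and of the 8 fits that left out a library it was called in 2, those without C-IKKa 15 or 18. The call was lost with a hair shaft keratin covariate (limma adjusted p = 0.102) and in male libraries alone (limma adjusted p = 0.0694). Tnfaip3, the deubiquitinase A20, held 454 to 538 in N-IKKa and 666 to 1736 in C-IKKa without overlap and missed the threshold (1.35, SE 0.25, limma adjusted p = 0.0586). Nfkbia, which encodes IkB alpha, did so as well, at 963 to 1198 and 1411 to 2682 (0.96, SE 0.18, limma adjusted p = 0.0619). In this list 6 of 12 genes had all C-IKKa libraries above all N-IKKa libraries, against 2.9% of all tested genes, and the median was 0.45. Without C-IKKa 15, limma called 5 of the 12 higher, against 1.15% of all genes in that fit. Without C-IKKa 18 it called 1 of the 12, against 0.237% of all genes. C-IKKa 15 was the lowest C-IKKa library in 48 of the 56 called-higher genes, so leaving it out favours such calls and gives no independent evidence.

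Of 30 NF-kB target genes 23 were tested and none was called, 19 had positive differences and the median was 0.59. Icam1, an adhesion molecule for leukocytes, held 552, 583 and 549 normalized counts in N-IKKa and 1199, 636, 1362, 1297 and 1020 in C-IKKa 13, 15, 16, 17 and 18. No library overlapped, and the difference was 0.92 (SE 0.21, limma adjusted p = 0.128). C-IKKa 15 stood just above the N-IKKa libraries, and without it the difference was 1.11 (limma adjusted p = 0.000502). Without C-IKKa 15, 6 of the 23 were called higher, against 1.15% of all genes in that fit, and without C-IKKa 18 none was. As for the IkB list, leaving out C-IKKa 15 favours such calls, for Icam1 too. Tnf, the inflammatory cytokine, gave 0.81 (limma adjusted p = 0.451), and Irf1, a transcription factor shared with the interferon response, 0.74 (limma adjusted p = 0.128).

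Among interferon gamma chemokines and guanylate-binding proteins, 2 of 18 tested genes rose, Cxcl9 and Ubd, against 0.321% of all tested genes. The list median was 0.48. Cxcl9, a chemokine for activated T cells, held 62.8, 70.4 and 24.6 normalized counts in N-IKKa 7, 10 and 12. In C-IKKa 13, 15, 16, 17 and 18 it held 429, 145, 585, 557 and 656, all above N-IKKa. The difference was 3.11 (SE 0.47, limma adjusted p = 0.0188), or 8.65-fold, and 2.95 without C-IKKa 18 (limma adjusted p = 0.0410). Of the 8 fits that left out a library it was called in 3, those without N-IKKa 10, C-IKKa 15 or C-IKKa 18, and edgeR did not call it (adjusted p = 0.140). The call was also lost with robust moderation and with a hair shaft keratin covariate (limma adjusted p = 0.104). It was kept in male libraries alone (limma adjusted p = 0.0316). Cxcl10, a chemokine for the same receptor, and Cxcl11 were listed at 0 in all 8 libraries, as were Gbp4, Gbp6, Gbp9 and Igtp, so these 6 genes give no comparison. The guanylate-binding proteins Gbp2 (0.50), Gbp5 (0.76) and Gbp8 (1.01) were not called (limma adjusted p = 0.680, 0.466 and 0.454).

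Of 30 tested interferon-stimulated genes none was called, with 25 positive and a median of 0.24. Ddx58, the RNA sensor RIG-I, gave 0.72 (limma adjusted p = 0.265) and Parp14, an ADP-ribosyltransferase, 0.45 (limma adjusted p = 0.357), both with overlap.

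T cell markers were read beside Cxcl9. Of 19 tested T and cytotoxic cell markers none was called, 8 were positive and 11 negative, and the median was −0.02. Cd3e, a chain of the T cell receptor complex, gave −0.32 (limma adjusted p = 0.623), and Cd8a, which marks cytotoxic T cells, 1.30 (limma adjusted p = 0.442) at 6.16 to 20.3 against 15.6 to 40.2 normalized counts. Summed over the list, the level was 1838 to 2188 in N-IKKa and 1543 to 2128 in C-IKKa. Ifng itself held 0 to 2.77 in N-IKKa and 0 to 8.55 in C-IKKa, below the filter.

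Class I antigen presentation genes, which load peptides for display to T cells, were higher in sign without a call. All 14 tested members had positive differences (median 0.49), against 48.6% of all tested genes. In 9 of the 14 all C-IKKa libraries lay above all N-IKKa libraries, against 2.9% of all tested genes. Tap2, a subunit of the peptide transporter, held 641, 638 and 655 normalized counts in N-IKKa and 1175, 822.5, 1230, 1317 and 902 in C-IKKa 13, 15, 16, 17 and 18. Its C-IKKa libraries all lay above (0.73, SE 0.15, limma adjusted p = 0.0904). Tapbp, the chaperone that tethers the transporter to class I molecules, gave 0.57 (limma adjusted p = 0.124), and H2-K1 gave 0.43 (limma adjusted p = 0.170). H2-K2, a pseudogene of this family, was called (2.701, SE 0.40, limma adjusted p = 0.0150) at 5.54 to 11.4 against 29.4 to 86.5. Of the 8 fits that left out a library it was called in 3, those without N-IKKa 10, C-IKKa 15 or C-IKKa 18. Its near-identical relatives make the assignment of its reads uncertain. Class II genes had 10 tested members, 0 calls and a median of 0.18. H2-Eb1, a class II beta chain, gave 0.56 (limma adjusted p = 0.419) and Cd74, the invariant chain, 0.23 (limma adjusted p = 0.852).

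Of 18 tested genes for peptidoglycan recognition and Toll-like receptors 2 rose, Pglyrp2 and Nod2, against 0.321% of all tested genes. The list median was 0.19. Nod2, the cytoplasmic sensor of muramyl dipeptide, held 377, 267 and 260 normalized counts in N-IKKa 7, 10 and 12 and 1033, 599, 1094, 1091 and 859 in C-IKKa 13, 15, 16, 17 and 18. The groups did not overlap (1.62, SE 0.20, limma adjusted p = 0.00548), or 3.07-fold, and the call was lost without N-IKKa 12 (limma adjusted p = 0.0501). Tlr2, the receptor of bacterial lipopeptides, did not overlap either, at 211 to 285 and 327 to 626, and missed the threshold (1.02, limma adjusted p = 0.0598). Pglyrp3 and Pglyrp4, the epidermal relatives of Pglyrp2, gave 1.04 and 0.27 (limma adjusted p = 0.258 and 0.654).

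**Figure D3:**
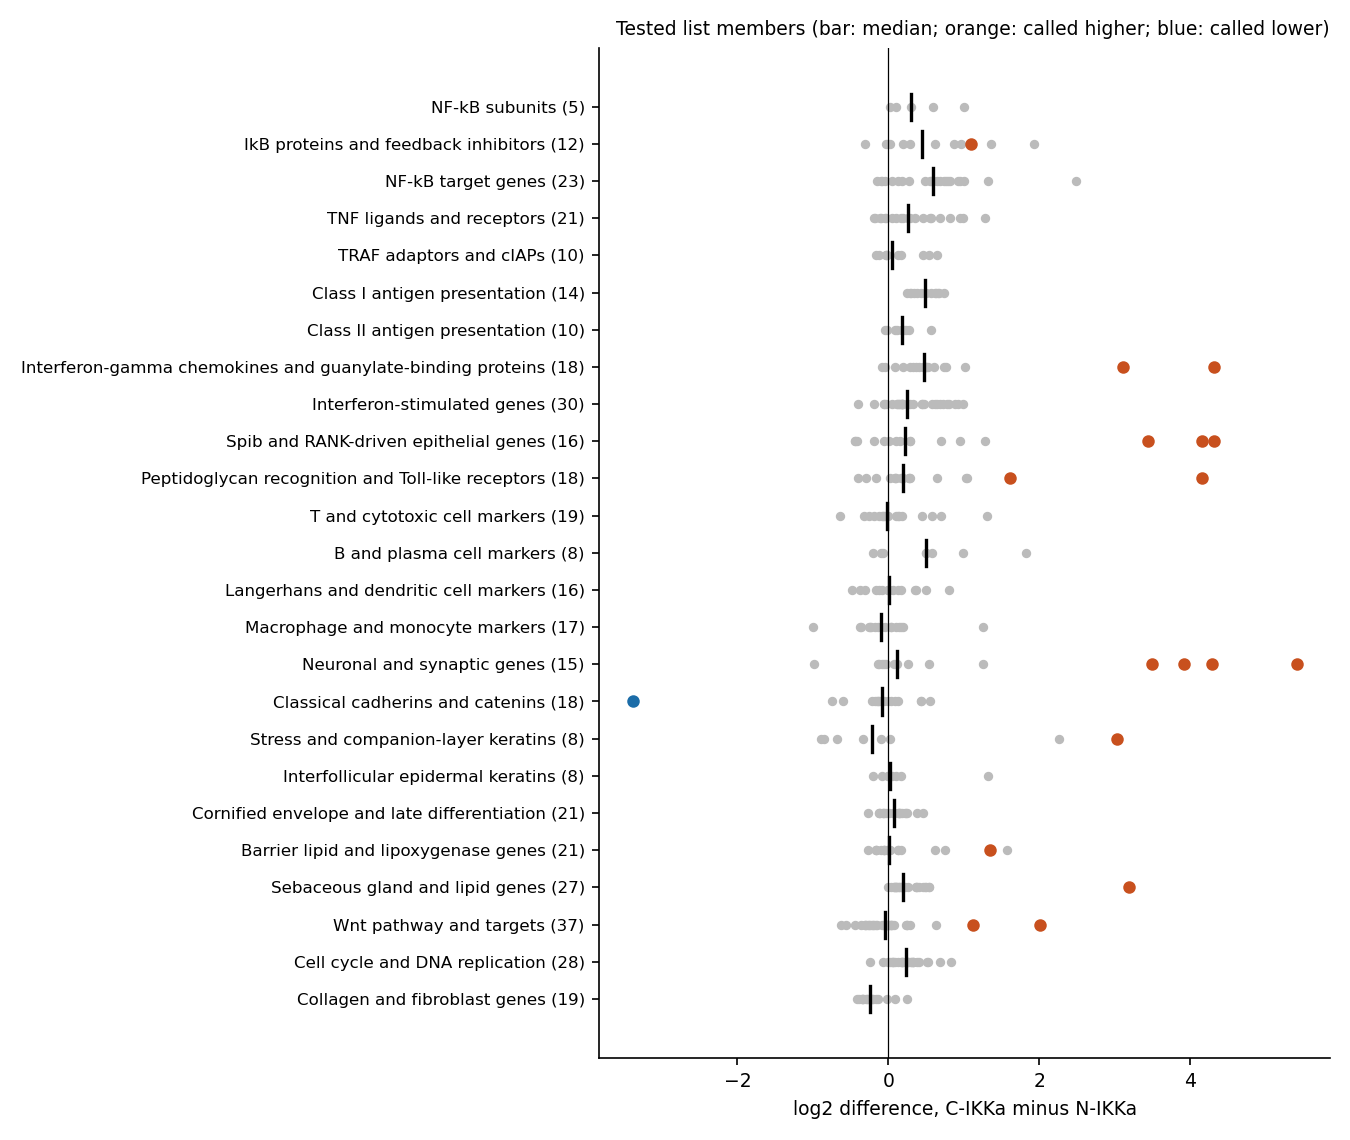
Log2 differences of C-IKKa minus N-IKKa for the tested members of 25 gene lists, with the number of tested members in brackets and a bar at the median. Cdh9 stands apart from its list at −3.39, Nfkbie at 1.10 lies among uncalled members of its own, and class I antigen presentation genes all lie to the right of 0 without a call.

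Genes known from neurons and synapses were among the largest differences. Syt1, the calcium sensor of synaptic vesicles, held 134, 56.3 and 106 normalized counts in N-IKKa 7, 10 and 12. In C-IKKa 13, 15, 16, 17 and 18 it held 1533, 319, 1696, 1733 and 891, all above N-IKKa (3.49, SE 0.50, limma adjusted p = 0.0128), or 11.2-fold. It was not called by edgeR (adjusted p = 0.162) or without N-IKKa 12 or C-IKKa 13 (highest limma adjusted p = 0.0670). The call was also lost with robust moderation, with a hair shaft keratin covariate (limma adjusted p = 0.0736) and in male libraries alone (limma adjusted p = 0.0516). Lingo2, a leucine-rich repeat membrane protein, held 21.2 to 24.6 in N-IKKa and 174 to 749 in C-IKKa (4.29, SE 0.37, limma adjusted p = 0.000615), or 19.6-fold. Gabrg3, a GABA receptor subunit, held 1.85 to 4.10 and 19.3 to 111 (3.91, SE 0.52, limma adjusted p = 0.00954), and was not called without N-IKKa 7 or C-IKKa 13 (highest limma adjusted p = 0.0651). For Tafa2, a secreted protein, N-IKKa held 1 read in all and C-IKKa 301 (library-scaled ratio 181, 95% counting interval 32.2 to 7175). The interval pools reads over libraries and leaves out the spread between mice. Tafa2 passed the filter through its C-IKKa libraries alone, at 21.1 to 72.2 normalized counts. Outside the comparison it held 0 to 17.5 in low-keratin WT libraries and 8.39, 14.2 and 3.13 in N-IKKa 8, 9 and 11.

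Syt1, Lingo2, Gabrg3 and Tafa2 were the 4 called members of 15 tested neuronal and synaptic genes, whose median was 0.12. Of all tested genes 0.321% were called higher. The list was chosen with earlier results of these data known, so the count is no evidence about the class. Of markers that define neurons, Snap25 held 0 to 2.77 normalized counts in the 8 libraries and Nefm 0 to 3.67, and Nefl was listed at 0, which is not read as absence. Rbfox1 (0.12), Map2 (−0.06) and Syn1 (−0.13) were not called (limma adjusted p = 0.936, 0.954 and 0.952). The 9 tested Schwann cell markers had a median of −0.28 with no call, and the myelin gene Pmp22 gave −0.28 (limma adjusted p = 0.585). Adcy8, a calcium-stimulated adenylyl cyclase (4.39, SE 0.68), and Pld5 of the phospholipase D family (3.14, SE 0.38) were also called (limma adjusted p = 0.0199 and 0.00496). A further 4 called genes of this kind were on no list and were named after their values were seen: Syn2, a synaptic vesicle protein (2.60), Kcnq3, a potassium channel (2.55), Lrrc4c, a synaptic adhesion protein (1.497), and Sorcs3, a sorting receptor (2.14).

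Krt16, a keratin of stressed and hyperproliferative epidermis, held 68.3, 184 and 130 normalized counts in N-IKKa 7, 10 and 12 and 702, 1445, 1016, 1098 and 764 in C-IKKa 13, 15, 16, 17 and 18. All C-IKKa libraries lay above, and C-IKKa 15 was the highest. The difference was 3.03 (SE 0.30, limma adjusted p = 0.00135), or 8.18-fold, and it was called in every alternative tried. The 4 WT libraries stood at 102 to 119. Krt6a and Krt17, keratins often induced with Krt16, were not called. Krt6a gave −0.33 (limma adjusted p = 0.866) and Krt17 −0.09 (limma adjusted p = 0.911). Krt75, a keratin of the companion layer of the hair follicle, held 1297 to 1701 in N-IKKa and 614 to 1045 in C-IKKa without overlap and missed the threshold (−0.86, limma adjusted p = 0.0681). The list of 8 tested stress and companion-layer keratins had a median of −0.21.

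Keratins and envelope proteins of the interfollicular epidermis were not called. Differences were 0.05 for Krt5 and 0.16 for Krt14 of the basal layer, 0.10 for Krt1 and 0.00021 for Krt10 of the suprabasal layers, 0.15 for the cornified envelope protein Lor and −0.26 for filaggrin, Flg. Their limma adjusted p ran from 0.816 for Flg to 0.9999 for Krt10. Krt2, a late suprabasal keratin, gave 1.32 (limma adjusted p = 0.407). Of 21 tested cornified envelope genes none was called (median 0.07), with the protease Asprv1 at 0.37 and Lce1a1 at 0.46 (limma adjusted p = 0.487 and 0.628), nor was any of 20 tested epidermal transcription factors (median −0.03). Ovol2, a repressor that keeps epithelial identity, held 271 ± 55.4 (SD, n = 3) and 151 ± 26.6 (SD, n = 5) without overlap (−0.84, limma adjusted p = 0.106). Ehf, an epithelial Ets factor, gave 0.78 (limma adjusted p = 0.248).

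Among enzymes of lipid metabolism 2 listed genes rose. Alox12e, an epidermal lipoxygenase, held 1422 to 1853 normalized counts in N-IKKa and 2610 to 6095 in C-IKKa (1.35, SE 0.23, limma adjusted p = 0.0289), and was 1 of 21 tested barrier lipid genes called (median 0.0023). Without C-IKKa 18 it was not called (limma adjusted p = 0.0530), and of the 8 fits that left out a library only the 1 without C-IKKa 15 called it. Cyp2j13, a cytochrome P450, held 3.52 to 7.18 and 16.5 to 88.7 (3.19, SE 0.52, limma adjusted p = 0.0278). Its call was lost without C-IKKa 18 (limma adjusted p = 0.0618), and of the 8 fits that left out a library only the 1 without C-IKKa 15 kept it. It was the 1 called gene of 27 tested sebaceous gland and lipid genes, of which 26 were positive, with a median of 0.19. S1pr3, a receptor for sphingosine 1-phosphate, held 153, 200 and 139 in N-IKKa and 1482, 591, 1617, 1431 and 1011 in C-IKKa 13, 15, 16, 17 and 18. It stood apart in every C-IKKa library (2.82, SE 0.28, limma adjusted p = 0.00146), or 7.08-fold, and was 1 of 11 tested sphingosine phosphate genes called.

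Of 37 tested genes of the Wnt pathway and its targets 2 rose, against 0.321% of all tested genes. Wif1, a secreted Wnt inhibitor, held 180, 131 and 129 normalized counts in N-IKKa 7, 10 and 12 and 595, 290, 765, 740 and 720 in C-IKKa 13, 15, 16, 17 and 18 (2.01, SE 0.28, limma adjusted p = 0.0116). Wnt10b, a Wnt ligand of the hair follicle, held 192 to 228 and 332 to 549 (1.12, SE 0.15, limma adjusted p = 0.0106). Neither gene overlapped between the groups, and both calls were kept without C-IKKa 18. Wif1 was not called by edgeR (adjusted p = 0.0677) or without N-IKKa 12 or C-IKKa 13, and Wnt10b was not called without N-IKKa 7 (limma adjusted p = 0.0734). Both calls were lost with a hair shaft keratin covariate (limma adjusted p = 0.0664 for Wif1 and 0.0618 for Wnt10b) and in male libraries alone (0.0566 and 0.0588). The list median was −0.05. Wif1 was also the 1 called gene of 17 tested hair matrix and dermal papilla genes.

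Cdkn2a, which encodes the cell cycle inhibitors p16 and p19Arf, held 1.85, 3.52 and 5.13 normalized counts in N-IKKa 7, 10 and 12 and 27.8, 21.1, 33.1, 20.3 and 18.1 in C-IKKa 13, 15, 16, 17 and 18. The groups did not overlap (2.51, SE 0.40, limma adjusted p = 0.0218), or 5.72-fold, and of the 8 fits that left out a library 2 kept the call, those without C-IKKa 15 or 18. The call was lost with WT libraries in the fit, with a hair shaft keratin covariate (limma adjusted p = 0.0773) and in male libraries alone (limma adjusted p = 0.0751). Cdkn2a was the 1 called gene of 18 tested cell cycle inhibitors. Of 28 tested cell cycle genes none was called, with 25 positive and a median of 0.24, which was 0.11 without C-IKKa 18 and 0.04 in male libraries alone. Mcm2, a replication helicase subunit, held 136 to 159 and 159.3 to 273 (0.51, limma adjusted p = 0.438), and Ccnd1, cyclin D1, gave −0.24 (limma adjusted p = 0.565). Mki67, a marker of dividing cells, gave 0.24 (limma adjusted p = 0.879) and 0.09 without C-IKKa 18, which held 2115 normalized counts.

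Further called genes came from outside the lists. Of the 61 called genes 43 were on no list, and the following were named after their values were seen, apart from Bcl2l15. Chil1, a chitinase-like secreted protein, held 126, 150 and 175 normalized counts in N-IKKa and 752, 462, 759, 862 and 588 in C-IKKa 13, 15, 16, 17 and 18. The groups stood well apart (2.16, SE 0.19, limma adjusted p = 0.000615), or 4.47-fold, and the call was kept in every alternative tried. Bcl2l15, of the Bcl-2 family, rose 7.66-fold (2.94, SE 0.45, limma adjusted p = 0.0193). Lpo, a peroxidase of secretions, held 0 to 3.52 and 22.03 to 72.1 (4.28, limma adjusted p = 0.00646). Fcgbp, a mucin-like secreted protein, was the most abundant of these at 4859 to 5696 and 9238 to 16644 (1.28, limma adjusted p = 0.0106). Etv3l, an Ets-family repressor (2.28), and Arhgap8, a GTPase-activating protein (2.64), were called as well (limma adjusted p = 0.0143 and 0.00293).

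Of the 56 called-higher genes 14 were numbered gene models, as was 1 of the 5 lower ones. Gm47662 and Gm6999 were listed at 0 in all 3 N-IKKa libraries and held 17.4 to 74.1 and 25.7 to 56.4 normalized counts in C-IKKa. Gm48709 held 2.05 to 5.28 in N-IKKa and 44.1 to 191 in C-IKKa (4.61, SE 0.47, limma adjusted p = 0.00164). In an annotation of the earlier mouse build that matched 60 of the 61 called genes, A530088E08Rik (3.13) overlapped Rasal3 and Gm16685 (1.75) overlapped Il7, each on the opposite strand. Gm6999 (5.36) overlapped Olfm4 on the same strand, and Olfm4 was tested and not called. How the counting used strand is not given in the sources used here, so reads of the opposite-strand pairs cannot be told apart. Whether reads of Gm6999 and Olfm4 were kept apart was not tested.

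The 4 WT libraries with low hair shaft keratins were set beside both groups. For 51 of the 56 called-higher genes all 5 C-IKKa libraries lay above all 4 WT libraries, and for 52 the N-IKKa and WT ranges overlapped. Relative to the mean of the 3 N-IKKa libraries, the median of the 56 genes was −0.04 to 0.25 on the log2 scale in WT 2, 3, 5 and 6. For the 5 lower genes the pattern was reversed. In 4 of them N-IKKa lay above all WT libraries, and in 4 the C-IKKa and WT ranges overlapped. These are descriptions without a test, and the same counts over all tested genes are not given here. The called genes were picked for a difference between C-IKKa and N-IKKa. The counts are therefore not read as a result about them.

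**Figure D4:**
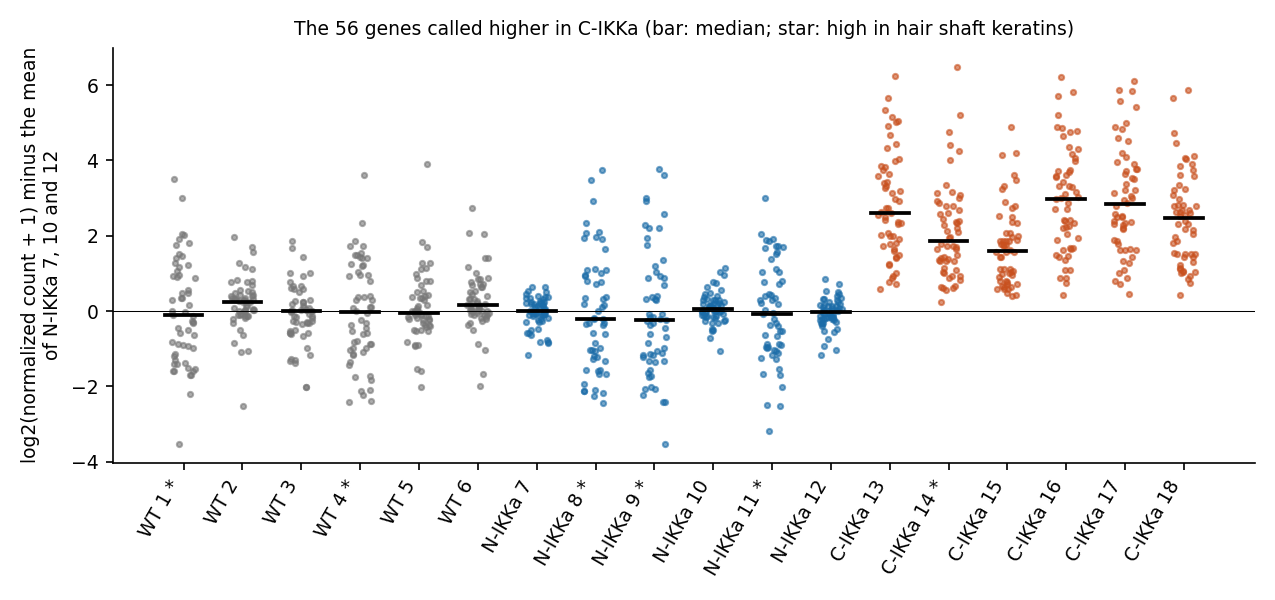
Log2 level of each of the 56 called-higher genes in every library relative to the mean of N-IKKa 7, 10 and 12, with a bar at the median and a star for libraries high in hair shaft keratins. Medians lie at 2.61, 1.604, 2.98, 2.83 and 2.46 in C-IKKa 13, 15, 16, 17 and 18 and at 1.87 in C-IKKa 14, and between −0.25 and 0.25 in WT and N-IKKa.

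The 4 libraries N-IKKa 8, 9 and 11 and C-IKKa 14, which the choice of genes did not use, were high in hair shaft keratins (means of 12.4 to 13.9), and all 4 were read as female. For 52 of the 56 called-higher genes C-IKKa 14 lay above all 3 N-IKKa libraries, against 33.3% of all tested genes. The median difference was 1.96 there and 2.53 in the 8 libraries. Spib held 10.3, 4.73 and 3.13 normalized counts in N-IKKa 8, 9 and 11 and 136 in C-IKKa 14. Ubd held 0.932, 3.79 and 2.09 against 42.4, Pglyrp2 19.6, 33.1 and 31.3 against 237, and Cxcl9 10.3, 19.9 and 24.0 against 499. Cdh9 held 45.7, 60.6 and 98.1 against 12.2. Of the 5 lower genes, C-IKKa 14 lay below all 3 N-IKKa libraries in 2, Cdh9 and D830036C21Rik, against 34.9% of all tested genes. With 1 C-IKKa library there is no replicate and no test of this class alone.

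Whether the contrast differed between the 2 hair classes was tested with an interaction term over the 12 N-IKKa and C-IKKa libraries, in which C-IKKa 14 is assumed to vary like the others. Limma called 376 genes (2.15%), and 7 of the 61 were among them. The 61 were chosen for their difference in the 8 libraries, and that difference is part of the interaction term. The 7 are therefore not read against the share of all genes. Wnt10b, Kif26a and Slc1a4 were higher in C-IKKa in the 8 libraries and lower in C-IKKa 14 (interactions of −1.45, −1.24 and −1.06, limma adjusted p = 0.0263, 0.0105 and 0.0305). Ltbp2, a matrix protein that binds fibrillin, was further apart in the high class (0.80 in the 8 libraries and 2.90 in the 4, limma adjusted p = 0.0105). Sphkap gave −1.76 in the 8 libraries and −0.12 in the 4 (limma adjusted p = 0.0436). The interaction of Cdh9 was 1.08 (limma adjusted p = 0.290) and that of Spib 0.97 (limma adjusted p = 0.604).

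**Figure D5:**
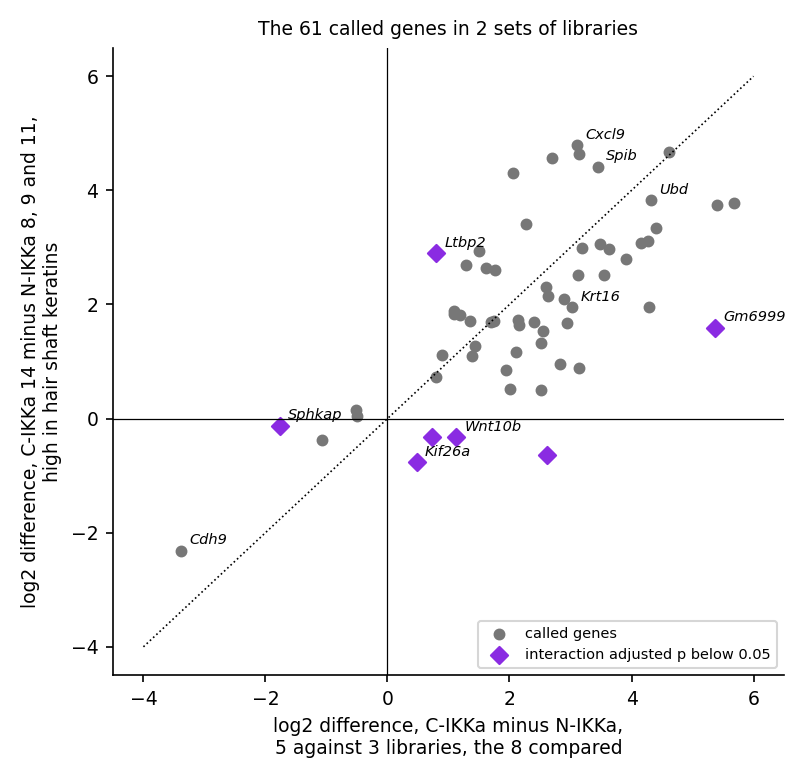
Log2 difference of C-IKKa minus N-IKKa for the 61 called genes in the 8 compared libraries (horizontal) and in the 4 libraries high in hair shaft keratins (vertical), with a dotted line of equality. Of the called-higher genes 52 of 56 keep their sign and of the lower genes 3 of 5, Cdh9 among them at −3.39 and −2.31, and the 7 diamonds mark an interaction at an adjusted p below 0.05.

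C-IKKa 15 stood apart from the other C-IKKa libraries. It was the lowest of the 5 in 48 of the 56 called-higher genes, against 26.8% of all tested genes. Its hair shaft keratins lay within the range of the other libraries, it was read as male like 5 of them, and its 14.7 M reads were the most of the 8. It also had the lowest weight of the 8 when array weights were estimated (0.564, with a highest of 1.73). For the 5 lower genes its median level was −1.02 relative to N-IKKa, within the −1.31 to −0.93 of the other 4 C-IKKa libraries.

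Dermal and other tissue lists were read for a difference in the make-up of the samples. Collagen and fibroblast genes had 17 of 19 tested members negative, a median of −0.25 and no call, and their summed level ranged from 106802 to 441201 in N-IKKa and from 78767 to 313668 in C-IKKa. Lum, a collagen-binding proteoglycan, gave −0.41 (limma adjusted p = 0.374) and Col6a2, a collagen VI chain, −0.35 (limma adjusted p = 0.295). Skeletal muscle genes had a median of 0.20 over 22 tested members, Langerhans and dendritic cell markers 0.0052 over 16, and macrophage and monocyte markers −0.10 over 17, with no call in any. Their summed levels overlapped between the groups. Lyve1, a macrophage and lymphatic receptor, held 453 to 2353 and 297 to 516 (−1.003, limma adjusted p = 0.632), and Myh1, a fast muscle myosin, 806 to 2305 and 1363 to 4732 (1.07, limma adjusted p = 0.468). The part of sample make-up in the called genes was not tested.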

How the data were processed

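Bulk RNA of back skin was sequenced as paired-end reads from stranded mRNA libraries, per the labels' protocols. The authors counted with featureCounts against GRCm39, per the submitters' processing notes. The sources used here do not give the aligner, annotation release, strand setting or scaling tool. For each gene the deposited values are 1 normalized count (a scaled signal) in every library. Within 0.001 reads, 100% of its values above 0 were whole multiples of 1 step in each library, so they were read as counts divided by 1 size factor per library, and counts were recovered. The 8 compared libraries held 12.6 to 14.7 M reads. No 2 of them were copies (smallest chi-square per gene 5.86).

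Log2(normalized count + 1) was tested with limma 3.58.1 (trended empirical Bayes, 6 residual degrees of freedom, two-sided) in R 4.3.3, with Benjamini-Hochberg adjustment over 17452 genes and calls at 0.05. Values of at least 10 in at least 3 of the 8 libraries were required. Chuk and Cxcl10 were compared by exact permutation. The model was tested on simulated data.

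Other settings were a pseudocount of 0.5 or 5, a filter of 50 or none, scaling by TMM, by median of ratios or by quantiles, the tests of DESeq2 1.42.0 and edgeR 4.0.16 (quasi-likelihood, robust) on recovered counts, robust moderation, array weights, a sex covariate, WT libraries in the fit, all 18 libraries without and with hair class, each library left out and a limit of 0.01. A hair shaft keratin covariate and male libraries alone were added after the data were seen.

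The 8 libraries, 56 gene lists and 24 fixed genes were chosen with earlier results of these data known. Also named were up to 15 genes per direction that were called, at least 2-fold apart, with a mean of at least 50 and no overlap, leaving out numbered models, and where fewer than 5 of a direction qualified, the 5 with the smallest p. In a list, its called members (at most 4) or else the 2 with the smallest p were named. Other members were named after their values were seen, as were the promoters shown. Lists were not tested as sets. Some members of the lists are not reported here.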

Additional observations from a re-analysis of the deposited data

Results flagged for a closer look

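Of 105 values checked in the 5 C-IKKa libraries, 8 had 1 library far from the other 4, where chance gives about 1 in 20. C-IKKa 15 was that library in 4 of the 8. It held 61.5 normalized counts of Edar, the ectodysplasin receptor, against 145.1 to 152.1 in the others. For Slc1a4, an amino acid transporter, it held 432.4 against 562.2 to 607.8, and for Igfals, which binds insulin-like growth factors, 250.6 against 443.1 to 486.2. Krt6a was higher there, at 1569 against 639.5 to 845.8.

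C-IKKa 18 stood apart in 3 genes, with 2115 normalized counts of Mki67 (others 1138 to 1396), 191 of Bst2 (106.5 to 126.7) and 11.4 of Stfa3 (24.8 to 29.9). C-IKKa 13 held 2014 of Col6a2 (2452 to 2546).

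In 7 of the 61 called genes the difference of C-IKKa minus N-IKKa itself differed between the 4 libraries high in hair shaft keratins and the 8 compared libraries (limma interaction). The change was 2.10 for Ltbp2, 1.64 for Sphkap, −1.06 for Slc1a4, −1.24 for Kif26a, −1.45 for Wnt10b, −3.77 for Gm6999 and −3.25 for 2010110G14Rik on the log2 scale. The high class holds 1 C-IKKa library, and sex and hair class cannot be told apart in it. The called genes were also chosen for their difference in the 8 libraries, which enters the interaction.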

How the results depend on the processing

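The count of 56 genes higher in C-IKKa was 34 with edgeR, 208 with DESeq2, 109 with array weights, 99 with all 18 libraries, 131 with all 18 and hair class, 19 at an adjusted p below 0.01 and 25 with a hair shaft keratin covariate. With 1 library left out it ran from 17 to 199. The count of 5 lower genes was 36 with DESeq2, 14 with a sex covariate, 1 with all 18 libraries, 3 at 0.01 and 3 with the hair shaft keratin covariate, and it ran from 2 to 14 with 1 library left out. Male libraries alone gave 38 and 5. The cause of these changes was not tested. Scaling, pseudocount, filter, robust moderation and WT libraries in the fit kept both counts within 1.5 times. Not all of the 61 were tested in each of the 26 settings, because some did not pass the stricter filter. Where tested, every one kept its sign except Kif26a with all 18 libraries (−0.30). In the same way, 12 genes were called in each setting that tested them. Among these, Gm6999, Frem3 and Lpo were not tested with the stricter filter. Signs of genes not called turned for Krt10 (−0.058 with array weights, −0.021 with a sex covariate, and −0.13 to 0.059 with 1 library left out, below 0 without N-IKKa 12, C-IKKa 13 or C-IKKa 15), Krt1 (−0.069 to 0.18 with 1 library left out, the first of these without C-IKKa 15), Mki67 (−0.86 with all 18 libraries, −0.21 with hair class, −0.0043 with the keratin covariate), Tnfrsf11a (0.43 with all 18, 0.058 with hair class), Cd3e (0.38 with all 18) and Lum (0.37 with all 18). No paired analysis was possible because the groups share no replicate numbers. Genes with a level of a few reads, such as Tafa2 in N-IKKa, are limited by depth.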

Other observations

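Stress genes of the epidermis were high in C-IKKa 15 alone among the 8 libraries. These genes were chosen after their values were seen. Krt6b, the keratin expressed with Krt6a in wounded epidermis, held 667 normalized counts there and 0.880 to 16.5 in the other 7 libraries. Sprr1b, a small proline-rich protein of the cornified envelope, held 419.5 against 0 to 15.4. Its relatives Sprr2d and Sprr2h held 98.2 and 128.5, with at most 5.54 and 6.18 elsewhere. Cxcr2, the neutrophil chemokine receptor, held 81.7 against 6.15 to 12.0. C-IKKa 15 is the library whose called-higher genes were lowest of the 5 and whose Krt16 was highest. A link between these values was not tested.

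Ccl1, a chemokine for the receptor CCR8, held 51.9 ± 22.3 normalized counts in C-IKKa (SD, n = 5) and 9.23 ± 5.04 in N-IKKa (SD, n = 3), without overlap, and missed the threshold (2.34, SE 0.47, limma adjusted p = 0.0924). Stfa3, a cystatin-type protease inhibitor, did likewise at 23.9 ± 7.27 and 3.66 ± 4.90 (2.97, SE 0.66, limma adjusted p = 0.130).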
